A study of Mus musculus with 35 samples.

Results

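The 10 structural genes of the sarcomere described here were followed across quadriceps muscle of mice without myostatin and of mice given a decoy receptor for it. They are 10 of the 19938 genes measured on the arrays. Z-disc genes were Nexn, Igfn1, Myoz1, Actn2, Ldb3 and Myot, the thin-filament genes were Lmod2 and Lmod3, and the M-band genes were Myom3 and Myom2. The genes were chosen by name with earlier results of these arrays known, and the row that stands for a gene was selected on its mean level over the 35 arrays, although each of the 10 had only 1 row. The p-values below therefore describe each gene in a fit over all genes, and are not independent evidence on the 10 as a set.

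In striated muscle, thin filaments of actin are anchored by their barbed ends in the Z-disc, where alpha-actinin links filaments of neighbouring sarcomeres. At the opposite, pointed ends, tropomodulins and leiomodins set the length of the filaments, and the M-band joins thick filaments of myosin at the middle of the sarcomere through proteins of the myomesin family. Many of these proteins exist in forms that differ between slow and fast fibres, and human mutations in several of them cause muscle or heart disease.

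The mice were females aged 2 months, in 4 classes: mstn-null mice, mice given 1 dose of ActRIIB-Fc, mice given 4 doses of it, and controls. Myostatin, the product of Mstn, is a secreted inhibitor of muscle growth. ActRIIB-Fc, a soluble form of the type IIB activin receptor, captures myostatin together with other ligands of that receptor. An initial experiment had 3 arrays in each class, and a second, independent experiment had 8 mstn-null arrays and 5 in each other class. The amount of a dose, the interval between doses, the null allele, the strain and what controls received are not given in the sources used here. The labels name the samples of a group as biological replicates, so p-values measure the spread between animals, and the number of arrays limits the precision. Values are log2 expression values, and the median of an array was 4.39 to 4.52 in experiment 1, against 6.06 to 6.27 in experiment 2. Levels are therefore set side by side only within an experiment. Different genes are compared by level only as percentiles of marker genes in controls.

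In the controls of each experiment, the 7 markers of skeletal muscle stood between the 99.4th and the 100th percentile of all genes. The 5 cardiac markers stood between the 37.3rd and the 68.7th. Mstn lay between 6.29 and 7.84 on mstn-null arrays of experiment 2, against 9.84 to 10.21 on control arrays. In experiment 1 it lay between 5.78 and 6.69 on mstn-null arrays, against 6.77 to 7.68 on control arrays, so the classes did not overlap in either experiment. The mstn-null arrays of experiment 2 had a narrow spread of values. Their interquartile range over all genes was 2.14 to 2.42, against 2.50 to 2.65 on control arrays, and replicates 6, 7 and 8 had the narrowest, at 2.14, 2.15 and 2.19. Results that rest on these arrays are given with and without them, or with the interquartile range as a term in the fit.

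Promoter sequences of 5 of the 10 genes were at hand from RefSeq (build GRCm38.p6), each running from 250 bases before the transcription start to 50 after it, printed 5′ to 3′ on the strand of the gene. The 4 printed here belong to genes whose levels moved in the results below: the pointed-end gene Lmod2, the M-band gene Myom3 and the Z-disc genes Actn2 and Igfn1. Capitals mark the E-box letters CANNTG, read on both strands because the motif is its own reverse complement, and in Myom3 also the MEF2 motif.
Lmod2, chr6:24597521-24597820, plus strand: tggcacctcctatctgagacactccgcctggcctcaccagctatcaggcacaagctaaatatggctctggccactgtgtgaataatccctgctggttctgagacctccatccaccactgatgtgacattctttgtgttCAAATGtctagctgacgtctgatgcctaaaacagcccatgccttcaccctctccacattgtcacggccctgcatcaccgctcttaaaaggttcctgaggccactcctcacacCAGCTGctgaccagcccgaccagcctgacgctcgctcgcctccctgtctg
Myom3, chr4:135759465-135759764, plus strand: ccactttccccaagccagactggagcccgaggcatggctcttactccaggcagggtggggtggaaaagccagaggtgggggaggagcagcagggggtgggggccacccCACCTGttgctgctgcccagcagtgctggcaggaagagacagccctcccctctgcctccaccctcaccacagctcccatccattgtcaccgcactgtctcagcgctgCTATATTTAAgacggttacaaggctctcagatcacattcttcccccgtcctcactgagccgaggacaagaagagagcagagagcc
Actn2, chr13:12340683-12340982, minus strand: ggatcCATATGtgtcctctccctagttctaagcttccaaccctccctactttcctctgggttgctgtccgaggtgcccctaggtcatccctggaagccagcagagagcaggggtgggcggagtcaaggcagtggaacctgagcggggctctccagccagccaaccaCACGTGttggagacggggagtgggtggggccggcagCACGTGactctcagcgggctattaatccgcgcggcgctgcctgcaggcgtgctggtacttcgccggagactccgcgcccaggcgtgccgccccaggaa
Igfn1, chr1:136006293-136006592, minus strand: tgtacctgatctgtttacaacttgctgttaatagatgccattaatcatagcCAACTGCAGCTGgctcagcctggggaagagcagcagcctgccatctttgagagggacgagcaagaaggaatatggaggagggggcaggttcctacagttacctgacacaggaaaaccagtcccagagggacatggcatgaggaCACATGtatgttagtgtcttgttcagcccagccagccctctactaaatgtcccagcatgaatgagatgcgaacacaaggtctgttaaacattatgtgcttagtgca

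E-boxes, the letters that myogenic factors of the MyoD family bind, numbered 2 in Lmod2, 1 in Myom3, 3 in Actn2 and 3 in Igfn1, and 72.3% of 32851 mouse promoter windows of the same length held at least 1. One of those in Lmod2 lay on the first 6 bases of the transcript, and both CACGTG copies of Actn2 lay between 84 and 43 bases before the start. Myom3 held the MEF2 motif at 35 to 26 bases before the start, a motif found in 1.86% of the windows. The CArG motif bound by serum response factor was found in Ldb3 alone among the 5 genes, and in 1.63% of all windows. The forkhead letters GTAAACA, searched on both strands, occurred once in Igfn1 and in 3.65% of all windows. Letters CAGAC, a short Smad-type element also searched on both strands, occurred in Lmod2, Myom3, Igfn1 and 1 of the windows of Ldb3, and in 49.6% of all windows. The matches given did not overlap one another. A match describes letters in this window and is no measurement of binding.

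The first question was which of these structural genes differ in muscle that lacks myostatin. In mstn-null quadriceps 6 of the 10 genes were lower than in controls and 0 were higher (limma, adjusted p below 0.05 over all genes), with Nexn and Lmod2 the most changed. Over all 19938 genes, 16.4% were lower by the same rule, which is the share to read 6 of 10 against. The median log2 change of the 10 genes was -0.56, and that of all genes was 0.085. Because the 10 were chosen with earlier results known, neither contrast with all genes is independent evidence on them as a set. The remaining 4 genes, Igfn1, Myoz1, Ldb3 and Myom2, changed by 0.26 or less on the log2 scale and did not pass. Quadriceps RNA comes from bulk tissue, in which fewer fibres of a type and less RNA per fibre cannot be told apart.

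Among the thin-filament genes, Lmod2 encodes leiomodin-2, which nucleates actin and lengthens thin filaments at their pointed ends. In experiment 1 its log2 values were 6.53, 6.10 and 5.88 on mstn-null arrays, against 7.71, 7.35 and 8.09 on control arrays. In experiment 2 the 8 mstn-null arrays ran between 6.73 and 8.51 with a median of 7.32, against control values of 9.54, 10, 9.90, 10.17 and 10.08. The highest mstn-null array was thus lower than the lowest control in both experiments. The share of all genes without overlap between classes was not computed, here or for the genes below. Without myostatin, Lmod2 was 4.5-fold lower (log2 change -2.17 ± 0.23 SE, adjusted p = 6.04e-08), and it ranked 7th of all genes by p-value. Lmod3 encodes leiomodin-3, the paralog whose loss causes nemaline myopathy in humans. Its values were 7.61, 7.15 and 7.28 on mstn-null arrays of experiment 1, against 8.34, 7.93 and 8.23 on control arrays. In experiment 2 the mstn-null arrays ran between 7.42 and 9.45 with a median of 8.72, against control values of 9.77, 10, 9.82, 9.85 and 9.84. Here too the classes did not overlap, and Lmod3 fell by 1.09 ± 0.18 SE on the log2 scale (adjusted p = 3.85e-05).

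Nexn encodes nexilin, which binds actin at the Z-disc and is best known from the heart. Its values were 7.26, 6.98 and 6.65 on mstn-null arrays of experiment 1, against 9.05, 9.21 and 9.49 on control arrays. In experiment 2 the 8 mstn-null values ran between 6.64 and 11.30 with a median of 9.14, against control values of 11.44, 11.59, 11.47, 11.90 and 11.88. The classes did not overlap in either experiment. Replicate 5 of experiment 2, at 11.30, was close to the lowest control, while replicates 6 and 8, at 7.33 and 6.64, were the lowest. Nexn was 6.16-fold lower (log2 change -2.62 ± 0.42 SE, adjusted p = 2.3e-05).

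Actn2 encodes alpha-actinin-2, the actin cross-linker of the Z-disc in all fibre types. Its values were 9.44, 9.81 and 9.43 on mstn-null arrays of experiment 1, against 10.38, 9.86 and 10.32 on control arrays. In experiment 2 they ran between 9.78 and 11.76 with a median of 11.12 on mstn-null arrays, against 11.73, 11.95, 11.86, 12.12 and 11.90 on control arrays. In experiment 1 the classes did not overlap, and in experiment 2 mstn-null replicate 3 alone reached into the control range, so that 7 of 8 lay below it. Actn2 fell by 0.80 ± 0.16 SE on the log2 scale (adjusted p = 0.000265). Myot encodes myotilin, which bundles actin with alpha-actinin. Its values overlapped in both experiments, with 10.95, 10.55 and 10.55 on mstn-null arrays of experiment 1, against 10.96, 10.44 and 10.99 on control arrays. In experiment 2 they ran between 12.10 and 13.02 with a median of 12.74 on mstn-null arrays, against 12.99 to 13.23 on control arrays, and 6 of 8 lay below all controls. Its fall was the smallest of the 6, at 0.32 ± 0.09 SE on the log2 scale (adjusted p = 0.00705).

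Myom3 encodes myomesin-3, an M-band protein known in mice from the intermediate fast fibres. Its values were 5.74, 5.95 and 5.78 on mstn-null arrays of experiment 1, against 7.10, 6.48 and 7.06 on control arrays. In experiment 2 they ran between 6.58 and 7.66 with a median of 7.18 on mstn-null arrays, against 8.06, 8.19, 8.17, 8.43 and 8.18 on control arrays. The classes did not overlap in either experiment, and Myom3 was 2.03-fold lower (log2 change -1.02 ± 0.13 SE, adjusted p = 1.25e-06).

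Igfn1, whose Z-disc protein of immunoglobulin and fibronectin domains binds filamin C, was not among them. In experiment 2 its values ran between 6.26 and 7.62 with a median of 7.28 on mstn-null arrays, against 6.48 to 7.10 on control arrays, with 5 of 8 mstn-null arrays above the control range and 1, replicate 6, below it. The change over both experiments was 0.26 ± 0.15 SE (adjusted p = 0.157). It was -0.02 in experiment 1 alone and 0.42 (adjusted p = 0.052) in experiment 2 alone. Without mstn-null replicates 6, 7 and 8 of experiment 2 it was 0.43 (adjusted p = 0.0216), an alternative chosen after seeing the data. Without replicate 6 alone it was 0.34 (adjusted p = 0.0417). Myoz1, whose product calsarcin-2 ties calcineurin to alpha-actinin in fast fibres, changed by 0.08 ± 0.06 SE (adjusted p = 0.241). After quantile normalization it was called higher (0.15, adjusted p = 0.0323). In experiment 1 its 3 mstn-null values, 11.05 to 11.08, lay above the control values of 10.70 to 10.91, and in experiment 2 the classes overlapped. Ldb3, the gene of the PDZ and LIM domain protein ZASP, changed by 0.02 ± 0.08 SE (adjusted p = 0.867). Myom2, the gene of M-protein, a myomesin relative of fast fibres, changed by 0.05 ± 0.06 SE (adjusted p = 0.542).

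**Figure D1:**
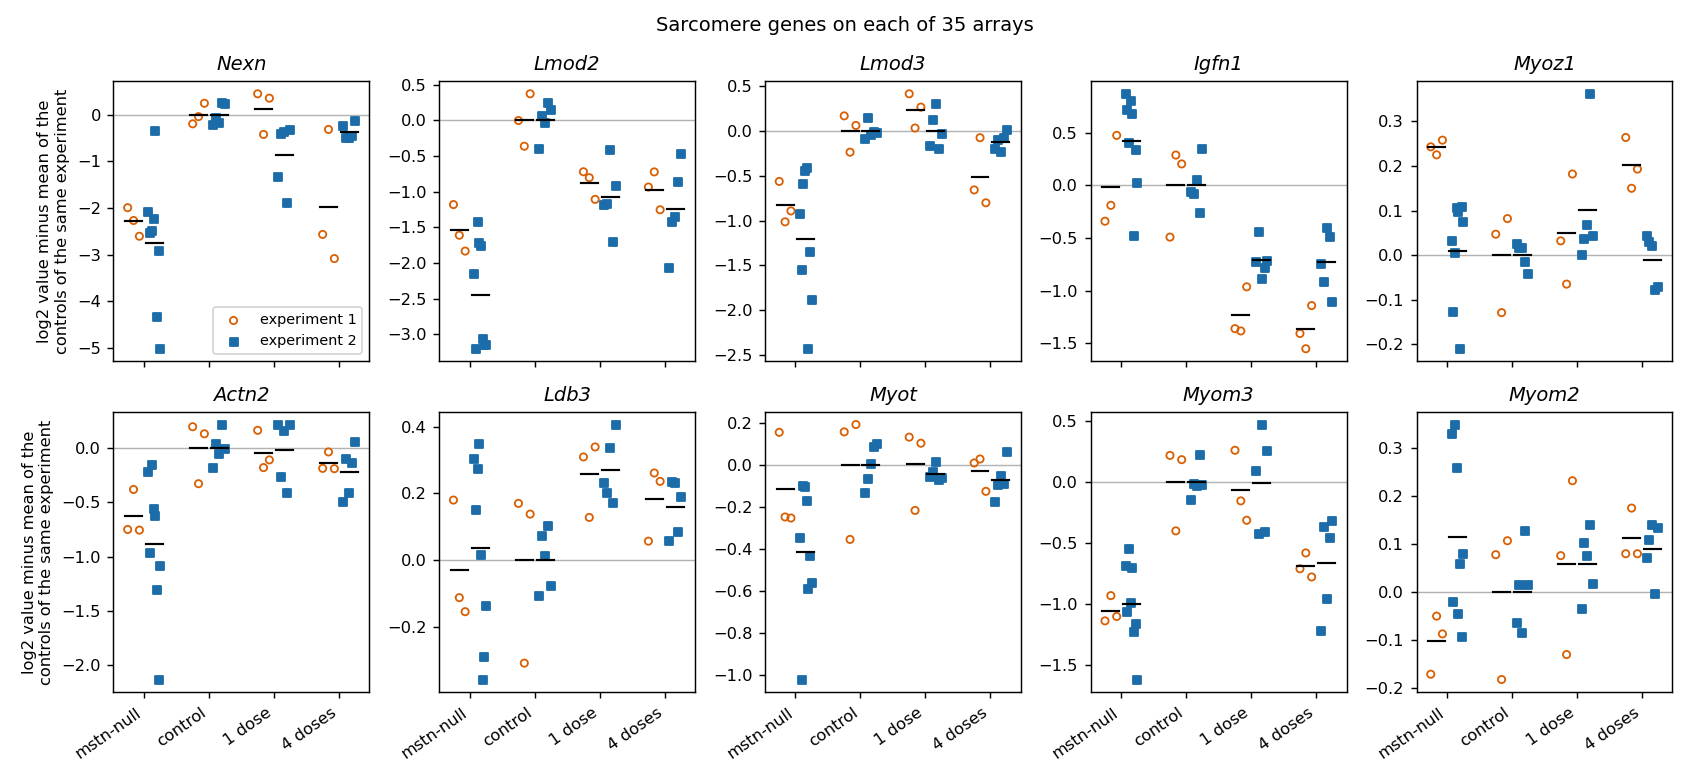
Log2 value of each gene on each array minus the mean of the controls of the same experiment, for mstn-null, control, 1-dose and 4-dose arrays; circles are experiment 1, squares experiment 2, and black lines the mean of each group. Within each experiment, Nexn, Lmod2, Lmod3 and Myom3 of mstn-null arrays sit below all control arrays. So do Igfn1 and Lmod2 of both dose classes and Myom3 of the 4-dose class. The share of all genes without such overlap was not computed.

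Each of the 6 falls had the same sign in both experiments. In experiment 1 alone 4 genes were lower, with Nexn at -2.29 (adjusted p = 0.0358), Lmod2 at -1.54 (0.00637), Lmod3 at -0.82 (0.0395) and Myom3 at -1.06 (0.01), and 1.99% of all genes were lower there. Actn2 stood at -0.63 (adjusted p = 0.0502) and Myot at -0.11 (adjusted p = 0.781) in that experiment. In experiment 2 alone all 6 were lower, where 16.6% of all genes were. Lmod2 stood there at -2.46 (adjusted p = 9.19e-06), Nexn at -2.75 (0.000143), Lmod3 at -1.20 (0.00044) and Myot at -0.41 (0.00466). Whether a change differed between the experiments was tested directly, and 0 of the 10 genes passed, against 1.68% of all genes. At an unadjusted p below 0.05 the count was 0 as well, and the share of all genes at that cut was not computed. The smallest unadjusted p values of this test were 0.0531 for Myoz1 and 0.0634 for Lmod2, whose changes differed by -0.91 ± 0.47 SE.

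The narrow range of the mstn-null arrays moved with the falls, as the plot of 3 genes against array range shows. With the interquartile range of each array as a term, 2 of the 6 genes still passed, Lmod2 at -1.59 (adjusted p = 0.000376) and Myom3 at -0.76 (adjusted p = 0.00566). In that fit 271 of all 19938 genes were lower. Nexn stood at -1.45 (adjusted p = 0.0712), Lmod3 at -0.55 (0.104), Actn2 at -0.445 (0.188) and Myot at -0.135 (0.565). Without mstn-null replicates 6, 7 and 8 of experiment 2, each of the 6 passed, with Nexn at -2.07 (adjusted p = 0.000196), Lmod2 at -1.86 (5.45e-07), Lmod3 at -0.80 (9.41e-05), Actn2 at -0.55 (0.000761), Myom3 at -0.90 (2.2e-05) and Myot at -0.26 (0.0477). Without those replicates 2540 of all genes were lower. Centring every array on its median lowered each mstn-null change by 0.105, and each of the 6 passed then too, where 4402 of all genes were lower.

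**Figure D2:**
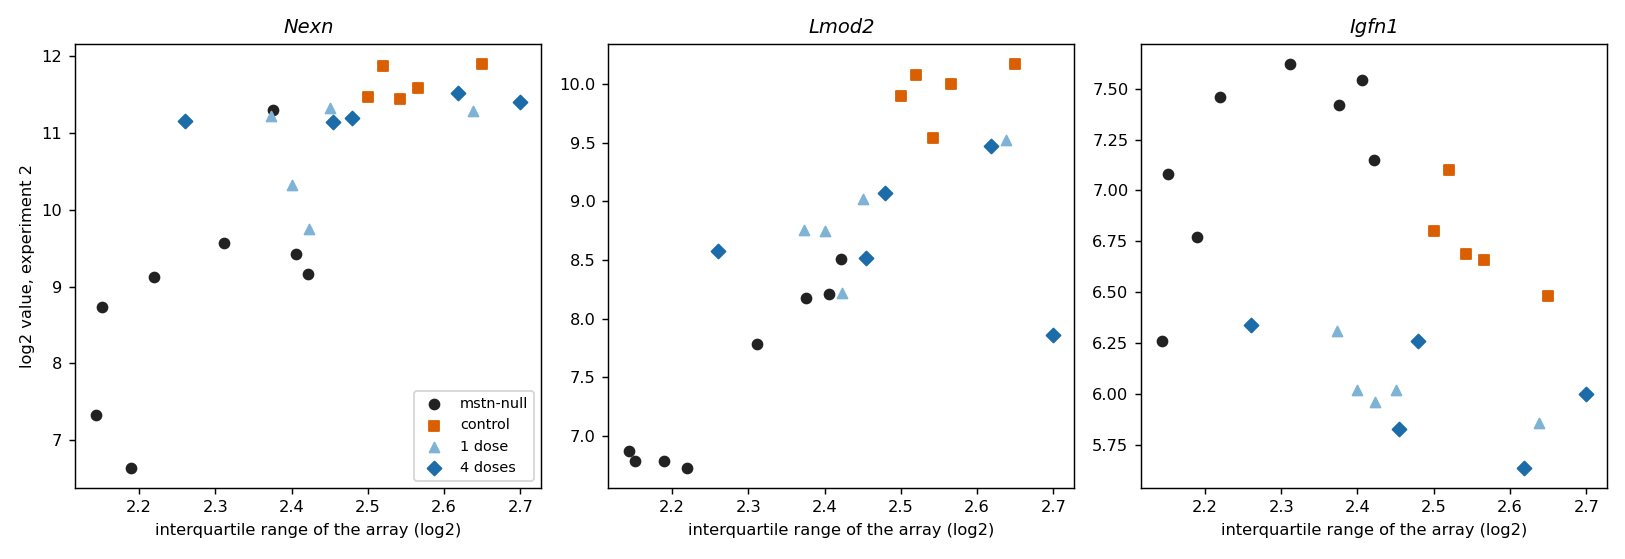
Log2 value of Nexn, Lmod2 and Igfn1 on each array of experiment 2 against the interquartile range of that array over all genes (log2). The mstn-null arrays of narrowest range, at 2.14 to 2.22, hold the lowest Lmod2 values, 6.73 to 6.87, and no control or dose array has a range that narrow. Igfn1 and Lmod2 of both dose classes, and Nexn of the 1-dose class, lie below all controls. The share of all genes that lie so was not computed.

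Slow-fibre genes fell in the same muscles. Of 11 slow contractile genes, 10 were lower in mstn-null muscle (median log2 change -2.02). Their mean level ran between 6.77 and 9.14 on mstn-null arrays of experiment 2, against 9.61 to 10.21 on control arrays, and between 5.65 and 6.80 on mstn-null arrays of experiment 1, against 7.34 to 8.87 on control arrays. None of the 10 sarcomere genes belongs to that list. Of 13 fast contractile genes 3 were lower and 1 higher, with a median of -0.007. Of 5 macrophage markers 4 were higher in mstn-null muscle and 5 after 4 doses (medians 0.37 and 0.564), where 25.4% and 1.91% of all genes were higher. In experiment 1 their mean level overlapped, at 4.69 to 4.94 on mstn-null arrays, against 4.47 to 5.07 on control arrays. In experiment 2 it did not, at 6.65 to 7.29 against 6.21 to 6.6. After 4 doses it was 4.98 to 5.31 in experiment 1 and 7.06 to 7.41 in experiment 2. Of 5 endothelial markers 3 were lower in mstn-null muscle (median -0.307). The part of these lists in the changes of the sarcomere genes was not tested.

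The next question was whether the decoy receptor moves the same structural genes in mice that make myostatin. After 1 dose of ActRIIB-Fc, Igfn1 and Lmod2 were lower than in controls and 0 of the 10 were higher, where 0.572% of all genes were lower. After 4 doses Igfn1, Lmod2 and Myom3 were lower and 0 were higher, where 1.23% of all genes were lower. The median change of the 10 genes was -0.025 after 1 dose (0.025 for all genes) and -0.227 after 4 doses (0.02 for all genes). Each comparison with control uses the same control arrays.

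Igfn1 had the smallest p of the 10 genes after both courses of doses. In experiment 1 its values were 4.74, 4.72 and 5.14 after 1 dose, against 5.61, 6.39 and 6.30 in controls. In experiment 2 they were 6.02, 6.31, 5.86, 5.96 and 6.02 after 1 dose, against 6.69, 6.66, 6.80, 6.48 and 7.10 in controls. No 1-dose array reached the lowest control. After 4 doses they were 4.70, 4.55 and 4.96 in experiment 1 and 6.0, 5.83, 6.34, 6.26 and 5.64 in experiment 2, again all below the controls. How many of all genes separate from controls in this way was not computed, here or for Lmod2, Myom3, Nexn and Ldb3 below. The log2 change was -0.91 ± 0.16 SE after 1 dose (adjusted p = 0.000887) and -0.97 ± 0.16 SE after 4 doses (adjusted p = 0.000182), folds of 1.88 and 1.96. With array range as a term these were -0.92 (adjusted p = 0.00123) and -0.98 (adjusted p = 0.000231). The dosed values lay near the array medians, which were 4.39 to 4.52 in experiment 1 and 6.06 to 6.27 in experiment 2. Background flags were not used, so how far these values stood above background was not tested.

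Lmod2 had values of 6.99, 6.91 and 6.61 after 1 dose in experiment 1, against 7.71, 7.35 and 8.09 in controls. In experiment 2 they were 8.75, 8.76, 9.52, 8.22 and 9.02 after 1 dose, against 9.54, 10, 9.90, 10.17 and 10.08 in controls, so the highest 1-dose array lay just under the lowest control. After 4 doses the values were 6.78, 6.99 and 6.46 in experiment 1 and 7.86, 8.52, 8.58, 9.07 and 9.47 in experiment 2, all below the controls. Lmod2 was 2.01-fold lower after 1 dose (log2 change -1.01 ± 0.24 SE, adjusted p = 0.0256) and 2.2-fold lower after 4 doses (-1.14 ± 0.24 SE, adjusted p = 0.00383). The 1-dose call was lost without any 1 of 7 arrays, at adjusted p values between 0.0512 and 0.0694. These were 1-dose replicate 3 of experiment 1 (log2 change -0.96), and, from experiment 2, replicates 1 and 4 of the 1-dose class (-1.0 and -0.92) and replicates 2, 3, 4 and 5 of the controls (-0.98, -0.99, -0.95 and -0.965).

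Myom3 did not pass after 1 dose (-0.03 ± 0.14 SE, adjusted p = 0.955), with values of 7.14, 6.73 and 6.57 in experiment 1 and 8.30, 7.78, 8.68, 7.79 and 8.46 in experiment 2. After 4 doses its values were 6.17, 6.30 and 6.10 in experiment 1, against 7.10, 6.48 and 7.06 in controls. In experiment 2 they were 6.98, 7.83, 7.25, 7.75 and 7.88 after 4 doses, against 8.06 to 8.43 in controls, without overlap. Myom3 was 1.6-fold lower after 4 doses (log2 change -0.68 ± 0.14 SE, adjusted p = 0.00309). Slow-fibre genes were lower after 4 doses too, 9 of 11 (median -1.48), while 0 of 11 passed after 1 dose (median -0.895), and this was not tested for its part in the Myom3 fall.

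Nexn varied between animals in some dosed groups, with an SD of 1.47 after 4 doses in experiment 1 and 0.71 after 1 dose in experiment 2. It was 0.17 after 4 doses in experiment 2 and 0.48 after 1 dose in experiment 1, against 0.22 in the controls of each experiment. The mstn-null arrays of experiment 2 had an SD of 1.42. In experiment 1 its values were 6.69, 8.93 and 6.17 after 4 doses, against 9.05, 9.21 and 9.49 in controls, and in experiment 2 they were 11.41, 11.15, 11.16, 11.20 and 11.52 after 4 doses, against 11.44 to 11.90 in controls. The 4-dose change was -1.99 (adjusted p = 0.139) in experiment 1 alone and -0.37 (adjusted p = 0.864) in experiment 2 alone, and -0.97 ± 0.45 SE (adjusted p = 0.301) over both. After 1 dose the Nexn change was -0.50 ± 0.45 SE (adjusted p = 0.692) over both. In experiment 1 alone it was 0.12, with values of 9.69, 8.83 and 9.60 that overlapped the controls. In experiment 2 alone it was -0.87 (adjusted p = 0.429), with values of 9.75 to 11.33, all below controls. Ldb3 after 1 dose had values of 12.01 to 12.25 in experiment 2, against 11.74 to 11.95 in controls, without overlap. In experiment 1 its values, 9.89 to 10.11, overlapped those of controls, 9.46 to 9.94. The Ldb3 change was 0.27 ± 0.09 SE (adjusted p = 0.147) over both experiments. Lmod3 stood at 0.09 after 1 dose (adjusted p = 0.877) and -0.27 after 4 doses (adjusted p = 0.568). Actn2, Myot, Myoz1 and Myom2 changed by -0.19 to 0.10 after either course of doses, and none passed.

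**Figure D3:**
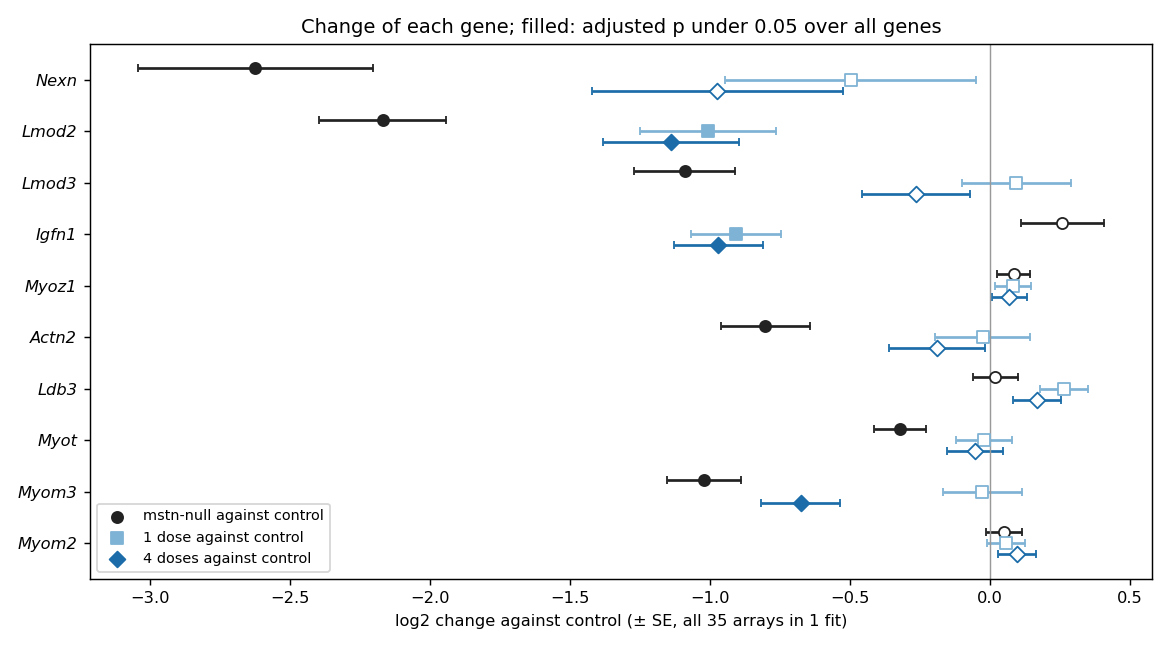
Log2 change against control (horizontal axis, ± SE) of each of the 10 genes in mstn-null mice (circles), after 1 dose (squares) and after 4 doses (diamonds), from 1 fit of all 35 arrays; filled symbols passed an adjusted p of 0.05 over all genes. Lmod2 is filled in all 3 comparisons, and Nexn, Lmod3, Actn2 and Myot in mstn-null mice alone. Myom3 is filled in mstn-null mice and after 4 doses, and Igfn1 after both courses of doses.

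Within experiments, 0 of the 10 genes passed after 1 dose in either, where 0.0201% of all genes were lower in experiment 1 and 0.522% in experiment 2. Igfn1 after 1 dose stood at -1.235 (adjusted p = 0.143) in experiment 1 and -0.71 (adjusted p = 0.0639) in experiment 2. After 4 doses 1 gene, Igfn1, passed in experiment 1 (-1.37, adjusted p = 0.0302), where 0.171% of all genes were lower. In experiment 2 both Igfn1 (-0.73, adjusted p = 0.0343) and Lmod2 (-1.24, adjusted p = 0.0383) passed, where 0.873% of all genes were lower. Myom3 stood at -0.69 (adjusted p = 0.13) in experiment 1 and -0.67 (adjusted p = 0.0713) in experiment 2. A difference of the change between experiments was found for 0 of the 10 genes after 1 dose and for 0 after 4 doses, where 0% and 0.00502% of all genes passed. At an unadjusted p below 0.05 it was found for 0 genes too, and the share of all genes at that cut was not computed. With so few of all genes passing, a count of 0 does not show that the changes were equal. The largest difference was that of Nexn after 4 doses, 1.62 ± 0.83 SE (unadjusted p = 0.0603, adjusted p = 0.705). The smallest unadjusted p was that of Igfn1 after 4 doses, 0.058 (difference 0.63 ± 0.32 SE).

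**Figure D4:**
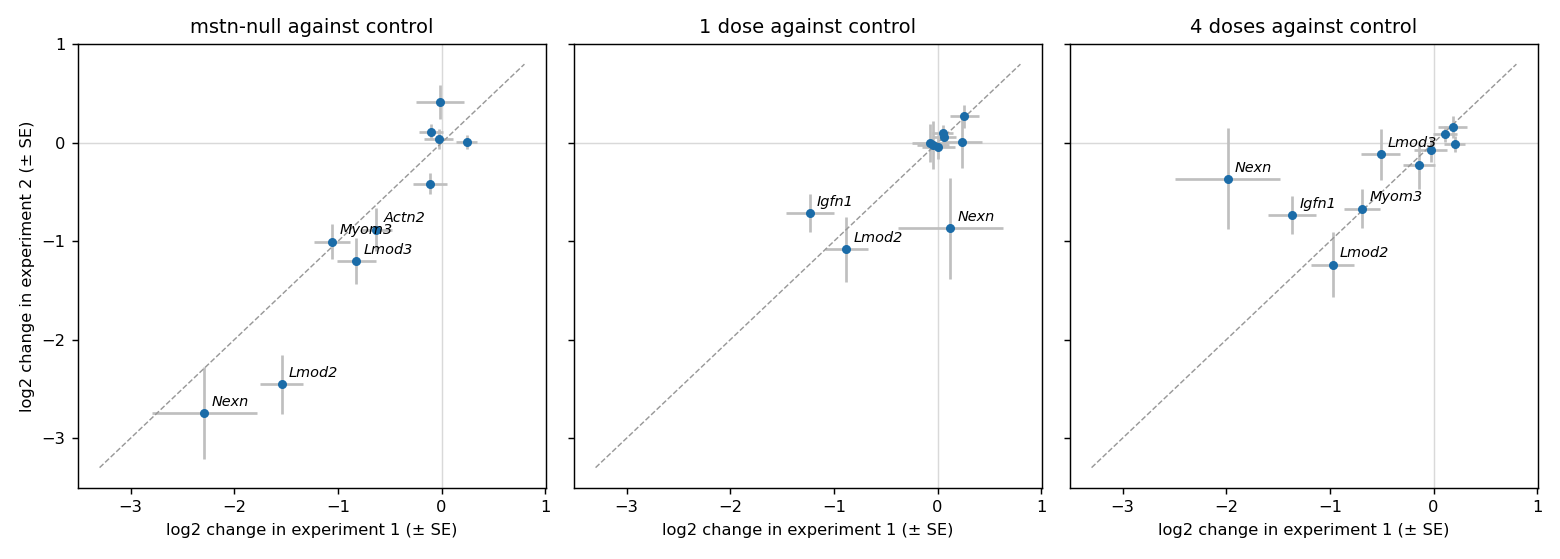
Log2 change against control in experiment 2 (vertical axis) against that in experiment 1 (horizontal axis) for each of the 10 genes, with SE bars, in mstn-null mice, after 1 dose and after 4 doses; the dashed line marks equal change. Nexn after 4 doses lies farthest from the line, at -1.99 in experiment 1 and -0.37 in experiment 2.

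Between 4 doses and 1 dose, Myom3 alone among the 10 genes differed, lower after 4 doses by 1.57-fold (log2 change -0.65 ± 0.14 SE, adjusted p = 0.0293), where 0.0451% of all genes were lower. The 4-dose values did not overlap the 1-dose values in experiment 1, and 3 of 5 lay below all 1-dose values in experiment 2. That call was lost without any 1 of 6 arrays, at adjusted p values between 0.0601 and 0.0838. These were 1-dose replicate 1 of experiment 1 (-0.60), and from experiment 2, replicates 1 and 3 of the 4-dose class (-0.565 and -0.60) and replicates 1, 3 and 5 of the 1-dose class (-0.63, -0.58 and -0.61). It was also lost with arrays centred on their medians. Igfn1 differed by -0.06 ± 0.16 SE and Lmod2 by -0.13 ± 0.24 SE, and neither passed.

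Set directly against mstn-null muscle, the dosed muscles had lower Igfn1 and higher levels of several other genes. After 4 doses 5 of the 10 genes were higher than in mstn-null muscle, where 11.4% of all genes were, and 1 was lower, where 8.75% were. Igfn1 was 2.34-fold lower after 4 doses (log2 change -1.23 ± 0.15 SE, adjusted p = 1.37e-06). Nexn was higher by 1.65 ± 0.42 SE (adjusted p = 0.00666), Lmod2 by 1.03 ± 0.23 SE (0.00231), Lmod3 by 0.83 ± 0.18 SE (0.00225), Actn2 by 0.61 ± 0.16 SE (0.00758) and Myot by 0.27 ± 0.09 SE (0.0393). Myom3 did not pass (0.35 ± 0.13 SE, adjusted p = 0.058). The differences between the experiments were not tested for this comparison. In experiment 2 alone Nexn stood at 2.38, Lmod2 at 1.22 and Lmod3 at 1.08. In experiment 1 alone they stood at 0.30, 0.57 and 0.31, and 0 of the 10 genes passed, where 3 of all 19938 genes did. After 1 dose 7 of the 10 genes were higher than in mstn-null muscle, where 10.9% of all genes were, and 1 was lower, where 5.9% were. Igfn1 was lower by 2.24-fold (-1.17 ± 0.15 SE, adjusted p = 4.6e-06), and Nexn (2.13 ± 0.42 SE), Lmod3 (1.18), Lmod2 (1.16), Myom3 (0.99), Actn2 (0.78), Myot (0.30) and Ldb3 (0.25) were higher. With array range as a term, Igfn1 was the 1 gene of the 10 that passed after 4 doses, where 394 of all genes did. In the same fit 3 of the 10 passed after 1 dose, where 501 of all genes did. Without mstn-null replicates 6, 7 and 8 of experiment 2, 4 of the 10 genes passed after 4 doses (3 higher), where 1617 of all genes did. After 1 dose, again without these replicates, 6 passed (5 higher), where 1525 of all genes did. The calls lost were those of Nexn (1.10, adjusted p = 0.0556) and Myot (0.21, adjusted p = 0.185) after 4 doses and of Myot (0.24, adjusted p = 0.142) and Ldb3 (0.14, adjusted p = 0.241) after 1 dose. The Myot call after 4 doses was lost without any 1 of 11 arrays (adjusted p up to 0.0932), and the Ldb3 call after 1 dose without any 1 of 9 (up to 0.0646).

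Some of these genes moved together from array to array. Over the 35 arrays, with the mean of each experiment subtracted, Pearson's r between pairs of the 10 genes ran between -0.36 and 0.91 with a median of 0.26 over 45 pairs. It was highest for Nexn with Lmod3 (0.91), Lmod2 with Myom3 (0.83), and Lmod2 with both Lmod3 and Actn2 (0.82). With the mean of each group subtracted, so that class differences no longer enter, it was 0.80 for Nexn with Lmod3 and 0.76 for Lmod2 with Myom3. Igfn1 stood at -0.36 with Actn2 over classes and at 0.12 within groups. All of these values share arrays and their range, and are given as a description.

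Of all genes, those most like Nexn over the 35 arrays were Eif5b (r = 0.976), a translation initiation factor gene, and Htatsf1 (0.974), whose product acts in splicing and transcription. Both were lower in mstn-null muscle as well, Eif5b by 1.46 and Htatsf1 by 1.69 on the log2 scale, so the genes that tracked Nexn most closely were not those of the sarcomere. Lmod2 was most like Myoz2 (0.935), the slow-fibre calsarcin gene, and Pank1 (0.929), a coenzyme A synthesis gene. Actn2 was most like the fast myosin heavy chain genes Myh2 (0.961) and Myh1 (0.943). Lmod3 was most like Tcaim (0.968) and Acadm (0.956), Myom3 like Slc38a3 (0.891) and Idh2 (0.889), and Myot like Ppp2ca (0.932) and Exoc6 (0.912). Igfn1 was most like Mss51 (0.785), a gene of a mitochondrial protein of skeletal muscle, and Nos1 (0.744), the neuronal nitric oxide synthase gene. Mss51 changed by -2.50 after 1 dose and by -2.31 after 4 doses, against -0.29 (adjusted p = 0.2) in mstn-null muscle. Nos1 changed by -1.01 after 1 dose and by -0.74 after 4 doses, against 0.07 (adjusted p = 0.664) in mstn-null muscle. Ldb3 was most like Xirp1 (0.845) and Hspb6 (0.816), Myoz1 like Vps28 (0.768) and Rtn2 (0.755), and Myom2 like Tln2 (0.748) and Vcl (0.746), the genes of the adhesion proteins talin-2 and vinculin.

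The other genes of the same structures give the setting of the 10. They number 63 on these arrays. The 10 were chosen with earlier results of these arrays known, so a contrast with the 63 is not independent evidence. In mstn-null muscle 21 of the 63 were lower and 11 higher, with a median change of -0.08, where 16.4% of all genes were lower and 25.4% higher. With arrays centred on their medians the split was 28 lower and 3 higher. By structure, 12 of 33 other Z-disc genes were lower and 8 higher, 2 of 10 other M-band genes were lower and 2 higher, and 7 of 20 other thin-filament genes were lower and 1 higher. The Z-disc genes with the smallest p were Tcap (-1.19, adjusted p = 1.08e-06), which caps titin, Fhl1 (-1.50, adjusted p = 4.43e-06) and Myoz2 (-2.56, adjusted p = 5.66e-06). Those of the thin filament were slow-fibre genes, Tnnt1 (-1.88), Tpm3 (-2.02) and Tnnc1 (-2.87), and 5 of the 63 genes also belong to the slow-fibre list. Those of the M-band were Trim63 (-0.60, adjusted p = 0.00215), the ubiquitin ligase MuRF1, Cmya5 (-0.29, adjusted p = 0.0184) and Fhl2, which was higher (0.19, adjusted p = 0.031). Some close relatives of the 10 genes were picked for comparison after their values were seen. The alpha-actinin-3 gene Actn3 was higher by 0.15 (adjusted p = 0.00742), while Myom1 (-0.007), Myoz3 (-0.125), Tmod1 (-0.13), Tmod4 (-0.11) and Neb (0.01) did not pass. The Actn3 rise was 0.149 ± 0.044 SE, and centring arrays on their medians lowers each mstn-null change by 0.105. That shift is common to all genes and is most of the Actn3 rise. Whether Actn3 passes after centring is not given here.

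After 1 dose 1 of the 63 other genes was lower and 2 were higher (median 0.001). Trim63 was lower (-0.93, adjusted p = 0.000609), and the Z-disc genes Palld (0.61, adjusted p = 0.00154), which encodes the actin scaffold palladin, and Pdlim3 (0.40, adjusted p = 0.00426), which encodes a PDZ and LIM domain partner of alpha-actinin, were higher. Xirp1 (0.54, adjusted p = 0.131), Fhl2 (0.23, adjusted p = 0.168), Cmya5 (-0.19, adjusted p = 0.485), Actc1 (0.28, adjusted p = 0.0712), Tnni1 (-0.97, adjusted p = 0.283) and Tnnt1 (-0.735, adjusted p = 0.382) did not pass. After 4 doses 7 were lower and 5 higher (median 0.043). By structure these were 2 lower and 2 higher in the Z-disc, 1 and 1 in the M-band, and 4 and 2 in the thin filament. Trim63 (-0.87, adjusted p = 0.000708), Tcap (-0.73, adjusted p = 0.00588) and Tnnt1 (-1.50, adjusted p = 0.00753) were lower. Pdlim3 (0.50, adjusted p = 0.000137), Itgb1bp2 (0.38, adjusted p = 0.0429), the myosin chaperone cofactor gene Smyd1 (0.35, adjusted p = 0.0465), the cardiac actin gene Actc1 (0.68, adjusted p = 4.98e-07) and the tropomyosin gene Tpm2 (0.22, adjusted p = 0.0143) were higher, and the creatine kinase gene Ckm (0.11, adjusted p = 0.313) did not pass. Over all genes 0.542% were higher after 1 dose and 1.91% after 4 doses, against 25.4% in mstn-null muscle.

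**Figure D5:**
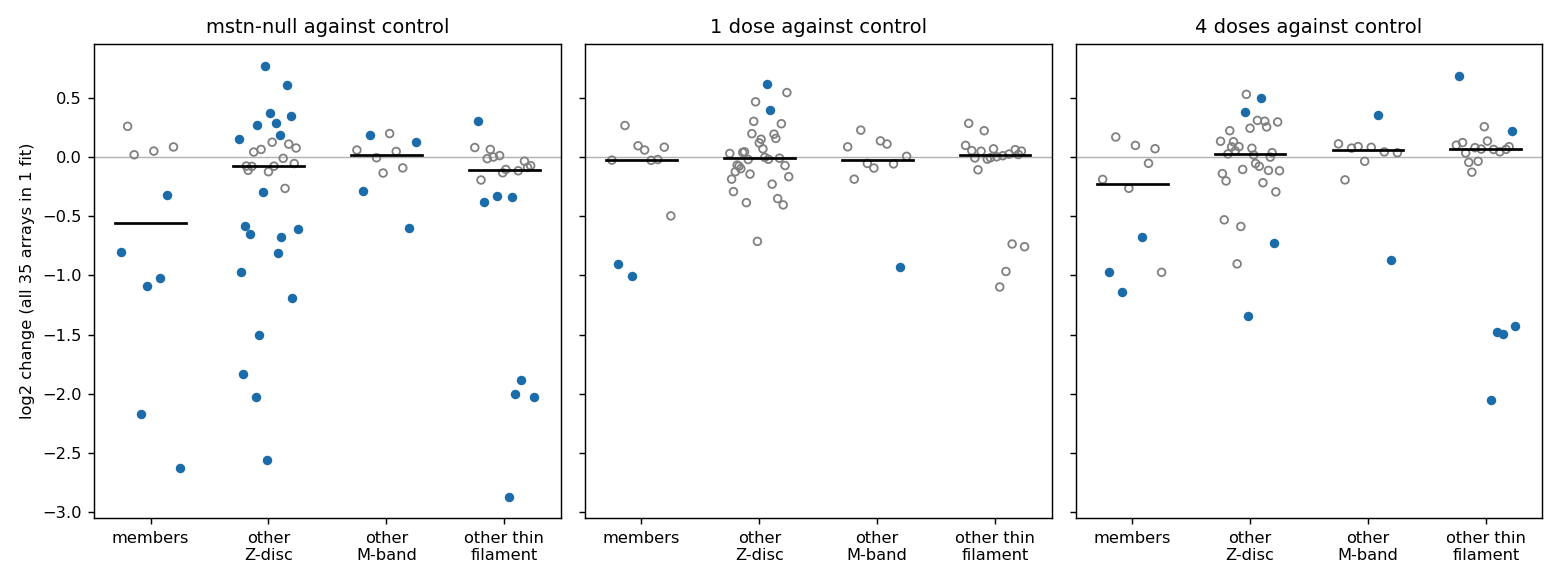
Log2 change against control of the 10 genes described here (members) and of the 63 other Z-disc, M-band and thin-filament genes, each point 1 gene, filled where adjusted p was below 0.05 over all genes; black lines are medians. In mstn-null muscle the median of the 10 genes is -0.56 and those of the other 3 groups lie between -0.11 and 0.02. The 10 genes were chosen with earlier results of these arrays known, so this contrast is not independent evidence on them.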

How the data were processed

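Total RNA of quadriceps muscle was labelled by a whole-transcript sense-target assay and hybridised to Affymetrix arrays, 1 array per mouse, per the labels. The deposited values are log2 expression values. Per the submitters' processing notes the authors used RMA, limma 3.4.4 and R 2.11.1, and the sources used here do not say whether RMA was run on the experiments jointly. The scale was read from the range of the values. No scanner files, and so no background flags, were used here.

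Of 35556 rows, 21789 carried 1 gene symbol, 1621 several and 12146 none. For each of 19938 genes with 1 symbol the row of highest mean was kept (999 genes had several rows). The values were fitted in R 4.3.3 with limma 3.58.1 (eBayes after lmFit, two-sided, class and experiment as terms, all 35 arrays), with Benjamini-Hochberg adjustment over all genes and a threshold of 0.05. Each experiment was also fitted alone, and a fit of 8 group means tested differences between experiments. No 2 arrays of a group held identical values. The fits were tested on simulated data.

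The members, the gene lists and the tests were chosen with earlier results of these data known. The text names all 10 members, Mstn, the 3 genes of smallest p in each list of other sarcomere genes per comparison with control, and the 2 genes most like each member; other names are said to have been picked after seeing values. Alternatives were quantile normalization, arrays centred on their medians, array range as a covariate, a filter on dim genes (9969 kept), the mean of all rows of a gene, trend and robust settings, array weights, replicate number as a block, each experiment alone and each array left out. Leaving out mstn-null replicates 6, 7 and 8 of experiment 2 was added after seeing the data. Promoter windows were RefSeq's (GRCm38.p6) for 5 of the 10 genes, and those on chromosome 18 (Myot) were left out. All 10 symbols matched RefSeq.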

Additional observations from a re-analysis of the deposited data

Results flagged for a closer look

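Among 40 groups of 5 or 8 arrays tested for 1 array far from the rest, 1 stood out, and chance gives about 1 in 20. Myoz1 was at 12.98 on 1-dose replicate 4 of experiment 2, while the other arrays of that group lay between 12.62 and 12.69 (n = 5). That array also had the lowest mean level of slow-fibre genes of its group, at 7.66, and the part of this in the Myoz1 value was not tested. Groups of 3 arrays were not tested.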

How the results depend on the processing

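Of 2760 values of a member's change under an alternative, 2661 kept their direction and side of the threshold or were never past it, 84 lost their call, 15 gained one and 0 called values reversed. The counts of members called moved by more than 1.5 times as follows. With array interquartile range as a covariate, 2 were called in mstn-null mice against control (6 before), 1 after 4 doses against mstn-null (6 before) and 3 after 1 dose against mstn-null (8 before). In experiment 1 alone the count was 0 after 1 dose against control (2 before), 1 after 4 doses against control (3 before), 0 for 4 doses against 1 dose, 0 for 4 doses against mstn-null and 4 for 1 dose against mstn-null. In experiment 2 alone it was 0 after 1 dose against control and 0 for 4 doses against 1 dose. With arrays centred on their medians it was 0 for 4 doses against 1 dose. With array weights, 2 members differed between experiments after 4 doses. Of the 63 other sarcomere genes, those called in mstn-null mice numbered 32, but 6 with the array range covariate and 6 in experiment 1 alone. After 1 dose they numbered 3, but 6 with the covariate, 13 with array weights and 0 in experiment 1 alone. After 4 doses they numbered 12, but 7 with trend and robust settings, 1 in experiment 1 alone and 6 in experiment 2 alone. Experiments alone hold fewer arrays, and otherwise the cause was not tested.

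With 1 array left out, members called ran 6 to 7 in mstn-null mice, 1 to 2 after 1 dose, 3 to 3 after 4 doses, 0 to 1 for 4 doses against 1 dose, 5 to 7 for 4 doses against mstn-null, 6 to 8 for 1 dose against mstn-null, and 0 to 0 for each difference between experiments. Other sarcomere genes called ran 28 to 32, 3 to 4 and 6 to 13 in the 3 comparisons with control. The lowest of these, 6, came without 4-dose replicate 1 or 3 of experiment 2, and it was 7 without control replicate 3 of experiment 1.

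With replicate number as a block, the count for 4 doses against mstn-null was 3 (6 before), and Igfn1 was called in mstn-null mice (0.43, adjusted p = 0.0212). The numbers are only shared between classes: same-numbered arrays of different classes had a median r of 0.017 over 18 pairs in experiment 1 and -0.003 over 30 pairs in experiment 2, against -0.041 and -0.006 for different numbers. Replicates 6 to 8 exist in the mstn-null class alone, so the block gives the same changes as leaving them out.

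Over all genes, calls in mstn-null mice numbered 8337 (5062 higher, 3275 lower), 5878 with arrays centred (1476 higher, 4402 lower), 596 with the covariate, 4827 without dim genes, 4982 with the block and 477 in experiment 1 alone. After 1 dose there were 222 (108 higher, 114 lower), 198 with arrays centred (67 higher, 131 lower), 1743 with array weights and 5 in experiment 1 alone. After 4 doses there were 626 (380 higher, 246 lower), 509 with arrays centred (235 higher, 274 lower), 1543 with array weights and 53 in experiment 1 alone. For 4 doses against mstn-null there were 4019 (2275 higher, 1744 lower), 3326 with arrays centred (2813 higher, 513 lower), 394 with the covariate, 1212 with the block, 3 in experiment 1 alone and 1617 without mstn-null replicates 6 to 8. For 1 dose against mstn-null there were 3354 (2178 higher, 1176 lower), 3279 with arrays centred (2872 higher, 407 lower), 501, 1244, 400 and 1525 under the same others. For 4 doses against 1 dose there were 64, but 40 with arrays centred, 135 with the covariate, 37 without dim genes, 437 with array weights and 42 in experiment 2 alone. No alternative bears on the depth of signal, since background flags were not used here.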
